A study of Homo sapiens with 4 samples.

Results

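The 39 genes described here encode inflammatory cytokines, their receptors, and the proteins that carry and restrain NF-kB signalling. They were taken by symbol from the 19749 genes of the deposited table, where CXCL8 is written IL8, and all 39 were found and had an adjusted p-value. The cells were U87, an established human glioblastoma line, grown in medium with serum. Of 4 poly(A)-selected RNA libraries, 2 were made after 24 h with YZ129, a small molecule, at 5 µM and 2 from control cells with the vehicle DMSO. No genotype differed between the groups, and all libraries were of this 1 line. The series title places the compound among inhibitors of HSP90, calcineurin and NFAT, and the single comparison asks which transcripts differ between the groups.

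NF-kB is a family of dimeric transcription factors built from the products of NFKB1, NFKB2, RELA, RELB and REL. In resting cells inhibitor proteins of the IkappaB family hold the dimers in the cytoplasm; signals from TNF, interleukin-1 or microbial products activate the IkappaB kinase, the inhibitor is destroyed, and the dimers enter the nucleus and bind kappaB sites in promoters of cytokine and chemokine genes. Several of their targets, among them NFKBIA and TNFAIP3, switch the pathway off again. Glioblastoma cells are known to secrete interleukin-6 and interleukin-8, which act on the tumour cells and on the cells around them.

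The table gives no value per library, so each gene is described by the authors' mean level (read counts divided by library size factors, averaged over libraries) and their log2 fold change ± standard error (SE). As read from the lowest values of the table, 8 libraries enter that mean level; the 4 beyond those of the labels were not analysed here. Genes whose only 2 reads lay in 1 of the 4 libraries that did not move the fold still had a deposited change. Its medians lay near 0, from -0.0024 to -0.0018. A fit without those libraries would hold no reads of these genes, so they were part of the authors' fit. The SEs, intervals and p-values below therefore rest on them too, and their condition is not known here. Fold changes had been moderated towards 0 by the authors, so the change of genes with few reads is understated. The table does not say which group is the numerator, and its name puts DMSO first. A positive value was read as higher with YZ129 because, in the authors' deposited table, 12 of 21 cytosolic heat shock genes were positive and passed an adjusted p of 0.05 and 0 were negative and passed, and blocking HSP90 is known to induce such genes. Of the 9 that did not pass, HSP90AA1 and HSP90AB1 were at -0.04 ± 0.14 and 0.05 ± 0.15 in the authors' deposited table. There the HSP90 cochaperone PTGES3 went the other way at -0.47 ± 0.18 (adjusted p = 0.065), and HSPB1 was at -0.21 ± 0.16. At an unadjusted p under 0.05, 14 of the 21 were positive and 1, PTGES3, was negative. The direction of that list is therefore no finding, and under the opposite reading each rise below is a fall and each fall a rise. The labels do not say whether libraries of one group are separate cultures, so p-values reflect only how far libraries differ, which may be technical. Of 8 tested astroglial and glioma markers 4 fell (against 7.64% of all tested genes) and 0 rose in the authors' table with DESeq2 columns. There 1, OLIG2, was higher at an unadjusted p under 0.05 (mean level 96.2, 0.82 ± 0.33, adjusted p = 0.079). The fallers were the filament genes VIM (mean level 298885, -0.46 ± 0.13, adjusted p = 0.0066) and NES (909, -0.59 ± 0.15, adjusted p = 0.0020), the adhesion receptor CD44 (134994, -0.38 ± 0.13, adjusted p = 0.035) and the glutamate transporter SLC1A3 (1891, -1.03 ± 0.15, adjusted p = 2.47e-10), in the authors' deposited table. CHI3L1 had a mean level of 4151 and GFAP, the astrocyte filament gene, 52.2, while S100B, ALDH1L1 and SOX2 stood at 1.12, 2.19 and 0.851 and were not tested in the authors' deposited table. Markers of other cell types were mixed in level. The leukocyte list ran from CD3E at 0.426 and PTPRC at 2.28 to CSF1R at 449 and CD68 at 12821 in the authors' deposited table. Endothelial markers ran from CDH5 at 0.629 to TEK at 120 and KDR at 673, and epithelial ones from KRT19 at 0.588 and CDH1 at 1.23 to KRT8 at 93.7, in the authors' deposited table. Of the 5 leukocyte, 4 endothelial and 4 epithelial markers tested 0 were called with the authors' DESeq2 columns, and 1 (CSF1R, lower) had an unadjusted p under 0.05. Markers that did not pass were named after their values were seen, and the part of any of these lists in the results below was not tested.

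Of the 39 genes 11 passed the test, and these went both ways. In the authors' deposited table, which has DESeq2 columns, 6 of 39 rose (15.4%), 5 fell (12.8%) and 28 did not pass an adjusted p of 0.05. Over all 14812 tested genes 5.24% rose and 7.64% fell, 12.9% together, against 28.2% of these genes. At a mean level of at least 1000, where 27 of the 39 lie, 3 rose and 4 fell (25.9% called), against 13.9% of the 7377 genes at that level, of which 3.82% rose and 10.1% fell. These genes were chosen with earlier results of the same table known, so the shares are descriptions and carry no test. The risers were IL24, TRAF1, IL6R, IL1A, TNFAIP3 and IL1RN, and the fallers CCL2, TNIP1, NFKBIA, IL6 and PTGES. Only IL24 among the 11 had a log2 change of 1 or more in size, as 2.79% of all tested genes did with an adjusted p under 0.05. The median over the 39 genes was 0.13, beside -0.05 over all tested genes and -0.11 over those at a level of at least 1000. With fold changes centred on the median of genes of like level, 9 of the 39 were called higher and 4 lower, and over all tested genes the calls turned from 776 higher and 1132 lower to 920 higher and 804 lower.

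**Figure D1:**
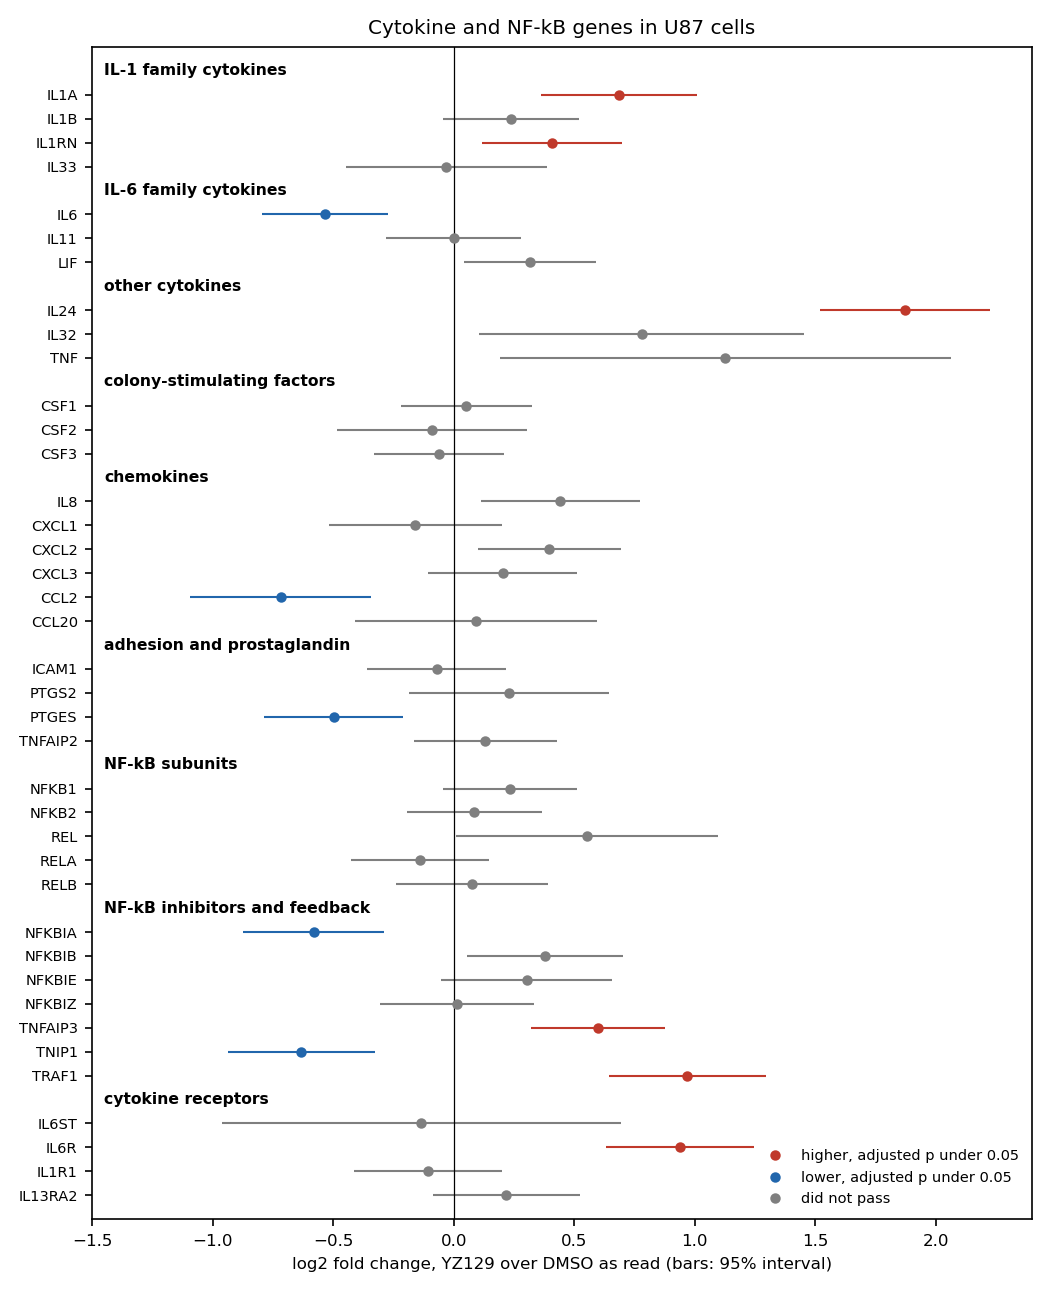
Log2 fold change (YZ129 over DMSO as read) of each of the 39 genes, grouped by role, with the 95% interval computed from the authors' SE as a bar. The 6 red genes rose and the 5 blue genes fell at an adjusted p under 0.05, IL24 lies farthest to the right at 1.87, and grey genes did not pass.

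Runs of letters that match kappaB sites can be seen in the promoters of some of these genes. RefSeq promoters (GRCh38.p14, 250 bases before to 50 after a transcription start) were matched for 32 of the 39 genes, 49 promoters in all; the 7 without an entry were LIF, CSF1, CSF3, CCL2, NFKBIE, RELB and IL13RA2. The authors' notes name hg19, so these coordinates are of another build than theirs. The first 4 stretches below, the 120 bases before the start, belong to the 4 genes that both passed the test and hold the kappaB consensus, a motif of 10 bases, and capitals mark its matches on either strand.
TNFAIP3, chr6:137867139-137867258, plus strand: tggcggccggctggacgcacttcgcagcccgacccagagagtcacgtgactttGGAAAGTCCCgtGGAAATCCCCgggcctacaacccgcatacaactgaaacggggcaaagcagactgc
IL6, chr7:22727080-22727199, plus strand: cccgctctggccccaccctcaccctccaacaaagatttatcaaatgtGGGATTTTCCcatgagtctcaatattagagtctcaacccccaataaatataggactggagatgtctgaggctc
NFKBIA, chr14:35404750-35404869, minus strand: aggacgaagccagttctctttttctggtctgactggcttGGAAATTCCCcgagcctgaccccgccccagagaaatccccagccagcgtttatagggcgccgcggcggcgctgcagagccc
TNIP1, chr5:151081035-151081154, minus strand: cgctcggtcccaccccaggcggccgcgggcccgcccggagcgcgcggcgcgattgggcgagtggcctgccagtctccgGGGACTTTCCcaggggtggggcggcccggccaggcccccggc
TNFAIP3 holds 2 matches, beginning at -67 and -55 from the start, and rose. IL6 holds 1 at -73 and NFKBIA 1 at -81. TNIP1 holds 1 at -42 in only 1 of its 2 promoters, the one shown. These 3 genes fell. Genes with a kappaB match in this window thus changed in both directions.

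The next 4 stretches show chemokines of one neutrophil-attracting family, of which CXCL1, CXCL2 and CXCL3 have promoters much alike and IL8 does not; none of the 4 genes passed the test. In CXCL1, CXCL2 and CXCL3 capitals mark 2 overlapping kappaB matches, and in IL8, which lacks the full consensus here, they mark the shorter motif GGAANTTCC.
IL8, chr4:73740449-73740568, plus strand: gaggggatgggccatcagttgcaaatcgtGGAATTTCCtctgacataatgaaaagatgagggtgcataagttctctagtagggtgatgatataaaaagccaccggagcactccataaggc
CXCL1, chr4:73869273-73869392, plus strand: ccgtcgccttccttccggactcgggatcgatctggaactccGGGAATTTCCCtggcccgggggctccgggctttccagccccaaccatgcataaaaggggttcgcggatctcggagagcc
CXCL2, chr4:74099196-74099315, minus strand: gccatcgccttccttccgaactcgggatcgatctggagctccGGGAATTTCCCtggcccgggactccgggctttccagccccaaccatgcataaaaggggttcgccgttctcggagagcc
CXCL3, chr4:74038690-74038809, minus strand: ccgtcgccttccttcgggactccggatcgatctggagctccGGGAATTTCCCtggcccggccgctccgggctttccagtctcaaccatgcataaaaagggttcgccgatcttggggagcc
Over these 120 bases CXCL1 and CXCL2 were 93.4% identical, CXCL1 and CXCL3 90.8% and CXCL2 and CXCL3 88.4%, counted over the columns of a global alignment. IL8 was 46.7% identical to CXCL1 by the same count.

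Across the matched genes, 15 of 32 (46.9%) held the kappaB consensus in at least 1 promoter, against 13.3% of all 27305 genes in the promoter table and 11.3% of its 35116 promoters. The genes were picked as members of the NF-kB system, so a high share follows from the choice. The motif GGAANTTCC, read on both strands and overlapping kappaB, was held by 10 of 32, against 1.16% of all genes and 0.965% of promoters. Of the matched genes, the kappaB consensus was found in 1 of the 6 that rose, 3 of the 4 that fell and 11 of the 22 that did not pass. The AP-1 motif TGANTCA, bound by FOS and JUN dimers, was held by 3 of the 6 that rose (IL1A, IL1RN and IL6R), 0 of the 4 that fell and 3 of the 22 that did not pass (IL8, IL11 and NFKBIB). Over all genes 9.37% held TGANTCA, as did 7.71% of promoters. These splits were looked at after the calls were known and rest on few genes. A match is a run of letters and no measured binding.

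**Figure D2:**
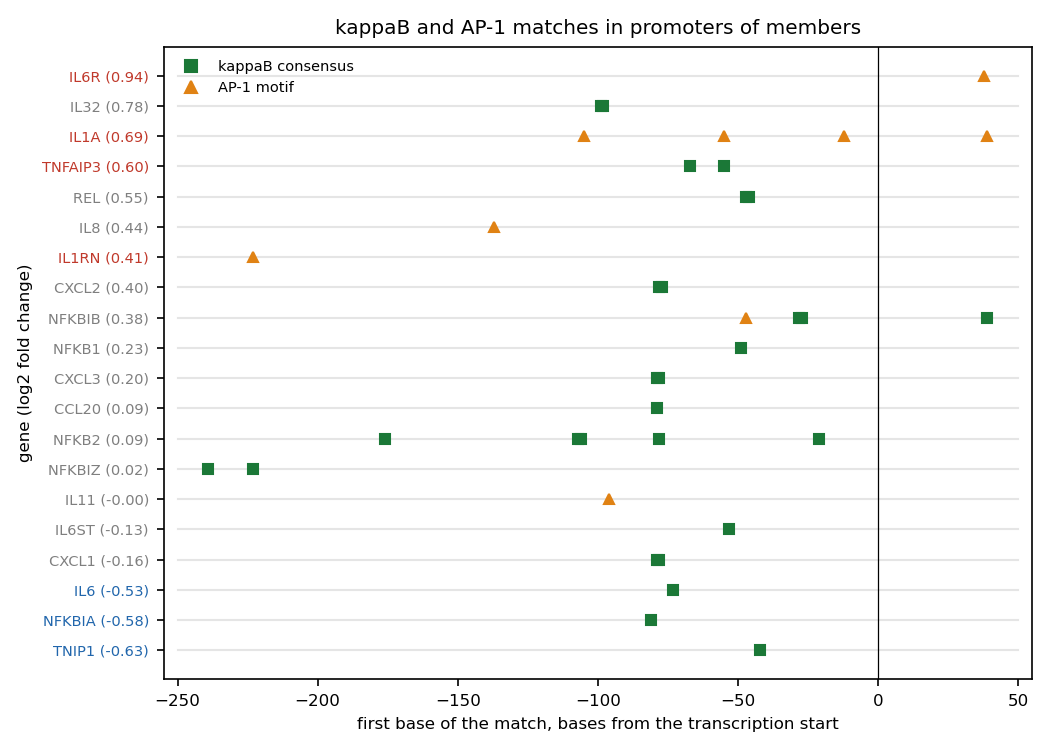
Position of each kappaB match (green squares) and AP-1 match (orange triangles) in the promoters of the 20 genes that hold one, as the first base of the match relative to the transcription start. Genes are ordered by log2 fold change, given in brackets, with names in red for risers and blue for fallers; TNFAIP3 has kappaB matches at -67 and -55, IL6 at -73, and IL1A holds AP-1 matches only.

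The interleukin-1 genes held 2 of the 6 rises. IL1A, the membrane-linked and nuclear alarm cytokine, rose 1.61-fold from a modest level (mean level 1009, 0.69 ± 0.16, adjusted p = 0.00072 in the authors' deposited table). IL1RN, the secreted antagonist that occupies the interleukin-1 receptor without signalling, was the call nearest to the threshold and rose 1.33-fold (0.41 ± 0.15, adjusted p = 0.049 in the authors' deposited table). With no filter on low values its adjusted p was 0.064 and the call was lost. IL1B, the secreted agonist, was the most abundant of all 39 genes, with a mean level of 178423, and did not pass (0.24 ± 0.14, adjusted p = 0.30 in the authors' deposited table). Its 95% interval ran from -0.04 to 0.52, computed from the authors' deposited table, so a rise of more than 1.43-fold lies outside it. The alarm cytokine IL33 was at -0.03 ± 0.21 in the authors' deposited table. IL1A and IL1B are neighbours on chromosome 2, and IL1RN lies in the same cluster, where the next protein-coding gene, the interleukin-1 family member IL1F10, rose from a low level (mean level 45.5, 1.31 ± 0.37, adjusted p = 0.0054 in the authors' deposited table).

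IL6 fell while its binding receptor rose. IL6, the cytokine that drives STAT3 signalling and the acute-phase response, was 1.45-fold lower (mean level 10997, -0.53 ± 0.13, adjusted p = 0.0013 in the authors' deposited table). IL6R, the chain that binds interleukin-6, rose 1.92-fold (mean level 736, 0.94 ± 0.16, adjusted p = 1.35e-07 in the authors' deposited table). The signal-transducing chain IL6ST, shared by the whole interleukin-6 family, stood at -0.13 ± 0.42 with a mean level of 23739 in the authors' deposited table. That SE is large for such an abundant gene: 98.1% of tested genes at a level of at least 1000 had a smaller one, and their median was 0.16. LIFR, the partner of IL6ST for LIF, likewise had an SE of 0.41 (-0.04 ± 0.41, mean level 2181) in the authors' deposited table. The chemokine gene CXCL5, outside this receptor system, had one of 0.42 at a mean level of 1372 there. IL6ST and LIFR were singled out after their values were seen. Neither gene therefore bears a statement on direction, and the interval of IL6ST ran from -0.96 to 0.69, computed from the authors' deposited table.

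The other interleukin-6 family cytokines did not pass. LIF, which keeps stem-like glioma cells undifferentiated, was at 0.32 ± 0.14 with an unadjusted p of 0.024 and an adjusted p of 0.12 in the authors' deposited table. IL11, which signals through the same transducer, lay at -0.001 ± 0.14 in the authors' deposited table, with an interval from -0.28 to 0.28. STAT3, the factor downstream of these cytokines, was at 0.21 ± 0.14 and its feedback inhibitor SOCS3 at -0.32 ± 0.15 in the authors' deposited table, neither past the threshold.

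IL24 had the largest change of the 39 genes. This interleukin-10 family cytokine, known for its growth-suppressing action on tumour cells, rose 3.67-fold, with an interval from 2.87-fold to 4.68-fold (mean level 624, 1.87 ± 0.18, adjusted p = 7.72e-23 in the authors' deposited table). Beside it on chromosome 1, the family member IL20 was at a mean level of 2.19 and not tested, and FCMR on the other side was at 0.04 ± 0.25 in the authors' deposited table. TNF, the founding NF-kB-activating cytokine, had a mean level of 21.8, the lowest of the 39, and its value of 1.13 ± 0.48 did not pass (adjusted p = 0.10 in the authors' deposited table). IL32, a cytokine of the same low range with a mean level of 83.4, was at 0.78 ± 0.34 (adjusted p = 0.12 in the authors' deposited table). The intervals of TNF and IL32 were wide, from 0.19 to 2.06 and from 0.11 to 1.46, computed from the authors' deposited table.

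None of the 3 colony-stimulating factors passed, and 0 reached an unadjusted p of 0.05 in the authors' table with DESeq2 columns. CSF3, which drives granulocyte formation, was among the most abundant members with a mean level of 70730 and a value of -0.06 ± 0.14 in the authors' deposited table. CSF1, the macrophage growth factor, was at 0.05 ± 0.14 and CSF2, the granulocyte-macrophage factor, at -0.09 ± 0.20 in the authors' deposited table. Their intervals, computed from the authors' deposited table, ran from -0.33 to 0.21 for CSF3, from -0.22 to 0.32 for CSF1 and from -0.49 to 0.31 for CSF2. Changes of 1.5-fold or more lie outside all 3.

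Among 6 chemokines CCL2 fell and the others did not pass. CCL2, which recruits monocytes, was 1.64-fold lower (mean level 364, -0.72 ± 0.19, adjusted p = 0.0030 in the authors' deposited table). IL8, the main neutrophil attractant, had a mean level of 127118 and a value of 0.44 ± 0.17, just outside the threshold (adjusted p = 0.062 in the authors' deposited table). CXCL2 lay next to it at 0.40 ± 0.15 (mean level 13439, adjusted p = 0.060 in the authors' deposited table). CXCL3 was at 0.20 ± 0.16 and CXCL1 at -0.16 ± 0.18 in the authors' deposited table. CCL20, which attracts lymphocytes and dendritic cells, was at 0.09 ± 0.26 in the authors' deposited table. CXCL1, CXCL2 and CXCL3 have closely similar sequences, so their reads may have been shared between them, depending on the authors' counting. The adjusted p of IL8 and CXCL2 fell under 0.05 when fold changes were centred on the median of all tested genes.

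**Figure D3:**
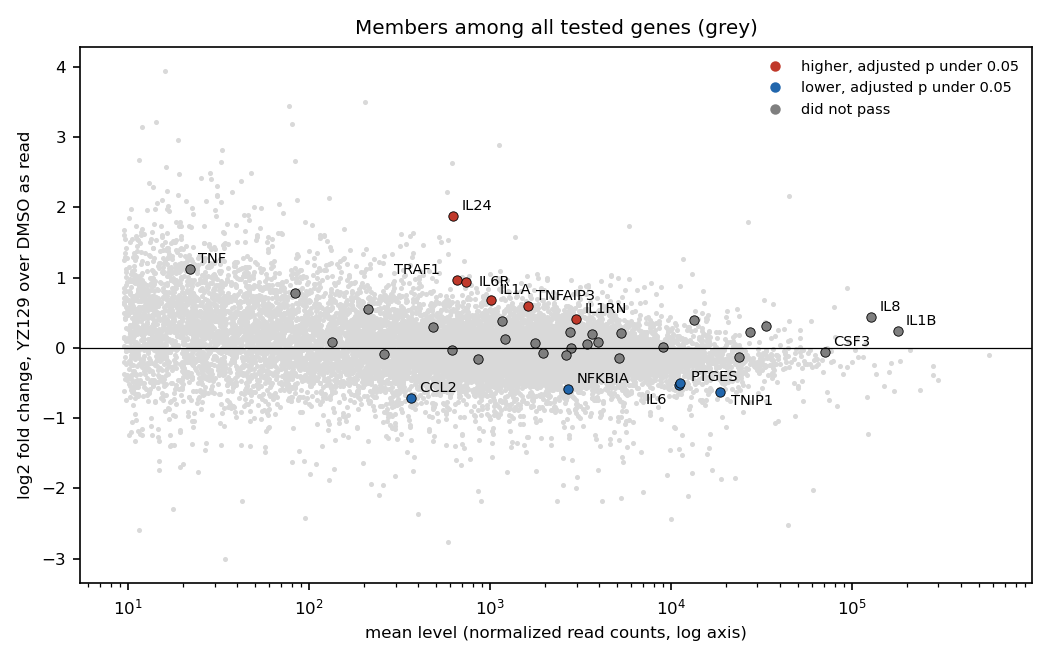
Log2 fold change (YZ129 over DMSO as read) against the authors' mean level on a log axis, for all 14812 tested genes (grey) and the 39 genes described (circled, coloured by call). IL1B and IL8 lie at the far right with values of 0.24 and 0.44, TNF at the far left, and IL24 stands above the other members.

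Per length of exon sequence the order of levels was led by 3 secreted proteins. Mean level per kilobase, from the authors' deposited table and exon lengths of GENCODE release 29, was 109395 for IL1B, 63464 for IL8 and 40006 for CSF3. CXCL2 followed with 11034 per kilobase, LIF with 8440, IL6 with 6416, PTGES with 6332 and TNIP1 with 6070, from the authors' deposited table. At the other end were TRAF1 with 101 per kilobase, IL32 with 49.6, REL with 18.8 and TNF with 13.0, from the authors' deposited table. Of the 6 risers, IL1RN ranked 16 of 39 and the others between 25 and 36 by this measure, whereas the fallers IL6, PTGES, TNIP1 and NFKBIA ranked 6, 7, 8 and 15 and CCL2 ranked 29. All tested genes lean the same way by mean level: their median was 0.24 under a level of 100 and -0.11 at 1000 or more. At that higher level 3.82% rose and 10.1% fell. No spread over libraries stands behind this order, and the averages include the 4 further libraries.

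In the prostaglandin and adhesion group PTGES fell. PTGES, the inducible synthase that makes prostaglandin E2 from the product of cyclooxygenase, was 1.41-fold lower (mean level 11233, -0.50 ± 0.15, adjusted p = 0.0094 in the authors' deposited table). With centring on genes of like level that call was lost (adjusted p = 0.12). PTGS2, the inducible cyclooxygenase one step upstream, was at 0.23 ± 0.21 in the authors' deposited table and did not pass. PTGER2, a receptor for prostaglandin E2, fell 2.21-fold (mean level 288, -1.14 ± 0.19, adjusted p = 1.75e-07 in the authors' deposited table). PTGER4, another such receptor, was at 0.40 ± 0.21 in the authors' deposited table and did not pass. The leukocyte adhesion molecule ICAM1 was at -0.07 ± 0.15 and TNFAIP2, a TNF-induced gene, at 0.13 ± 0.15 in the authors' deposited table.

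None of the 5 NF-kB subunit genes passed. In the authors' table with DESeq2 columns 1 of them, REL, reached an unadjusted p of 0.05 (0.55 ± 0.28, unadjusted p = 0.046, adjusted p = 0.19). NFKB1 was at 0.23 ± 0.14, NFKB2 at 0.09 ± 0.14, RELB at 0.08 ± 0.16 and RELA at -0.14 ± 0.15 in the authors' deposited table. Apart from REL, the intervals of these genes lay within 1.5-fold in either direction. The values are transcript levels and do not show where the proteins were in the cell.

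The inhibitors and feedback genes held 4 of the 11 calls, in opposite directions. Within the group 4 of 7 genes were called (57.1%), against 12.9% of all tested genes. TNFAIP3, a ubiquitin-editing enzyme that shuts off signalling from the TNF receptor, rose 1.51-fold (mean level 1615, 0.60 ± 0.14, adjusted p = 0.00062 in the authors' deposited table). TNIP1, which binds the TNFAIP3 protein and restrains the same pathway, fell 1.55-fold (mean level 18703, -0.63 ± 0.16, adjusted p = 0.0010 in the authors' deposited table). NFKBIA, the main IkappaB protein and a direct NF-kB target, fell as well (mean level 2690, -0.58 ± 0.15, adjusted p = 0.0019 in the authors' deposited table). TRAF1, an adaptor of TNF receptors and another known target, rose 1.96-fold (mean level 654, 0.97 ± 0.17, adjusted p = 3.45e-07 in the authors' deposited table). The remaining genes of this group, NFKBIB (0.38 ± 0.16), NFKBIE (0.30 ± 0.18) and NFKBIZ (0.02 ± 0.16), missed the threshold in the authors' deposited table. TNFAIP3, TRAF1, TNIP1 and NFKBIA are all known as NF-kB-induced genes, and they did not move one way.

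Among the cytokine receptors not yet described, none passed. IL1R1, the signalling receptor for IL1A and IL1B, was at -0.11 ± 0.16 in the authors' deposited table. IL13RA2, a decoy receptor for interleukin-13 and a known glioblastoma antigen, had a mean level of 5281 and a value of 0.22 ± 0.16 in the authors' deposited table. Of all 28 genes that did not pass, 17 had an interval within 1.5-fold in either direction and 11 had one that reached beyond. Of those 28, 7 had an unadjusted p under 0.05 (LIF, IL32, TNF, IL8, CXCL2, REL and NFKBIB), each with a positive value in the authors' deposited table. With called genes included, 13 of the 39 were higher and 5 lower at that unadjusted cut. Over all 14812 tested genes 1549 were higher and 2145 lower by the same count. Tested genes under a mean level of 100, where TNF and IL32 lie, had a median of 0.24. With centring on genes of like level TNF dropped to 0.81 (adjusted p = 0.32), IL32 to 0.61 (adjusted p = 0.29) and REL to 0.50 (adjusted p = 0.28). The values of LIF, IL8, CXCL2 and NFKBIB grew under that centring.

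Among further genes of the pathway the share of falls was near that of all genes. Of 104 further genes listed, 98 were in the table and 88 tested; 9 fell (10.2%, against 7.64% of all tested genes and 10.1% of those at a level of at least 1000), 0 rose (against 5.24%) and 79 did not pass in the authors' table with DESeq2 columns, where 2 were higher and 18 lower at an unadjusted p under 0.05. Over all 14812 tested genes 1549 were higher and 2145 lower at that unadjusted cut. The median of the 88 tested pathway genes was -0.10. With centring on genes of like level 1 of them, the deubiquitinase CYLD, was called higher (0.48, adjusted p = 0.026). One list held 32 genes of signalling between receptors and the IkappaB kinase, with the kinase subunits and regulators such as CYLD among them. Of these, 2 fell (6.25%): IKBKE, an IkappaB kinase relative active in interferon signalling (-0.74 ± 0.17, adjusted p = 0.00035), and the TRAF6-binding adaptor TIFA (-0.68 ± 0.18, adjusted p = 0.0029), in the authors' deposited table. The kinase subunits themselves, IKBKB (0.12 ± 0.15), CHUK (0.01 ± 0.19) and IKBKG (-0.33 ± 0.16), missed the threshold in the authors' deposited table. Of 16 receptors for NF-kB-activating ligands 3 fell (18.8%, against 7.64%). These were TNFRSF1B, the second TNF receptor (-0.66 ± 0.15, adjusted p = 0.00025), and the microbe sensors TLR3 (-0.94 ± 0.26, adjusted p = 0.0056) and TLR2 (-1.13 ± 0.35, adjusted p = 0.015) in the authors' deposited table. TNFRSF1A, the main TNF receptor, was at -0.39 ± 0.15 and did not pass (adjusted p = 0.062 in the authors' deposited table).

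Among 18 tested receptors and transducers of the member cytokines PTGER2 was the 1 call (5.56%, against 12.9% of all tested genes). Of 22 tested other NF-kB targets 3 fell (13.6%, against 7.64% of all tested genes). PTX3, a secreted pattern-recognition protein induced by interleukin-1, fell 1.85-fold (mean level 2950, -0.88 ± 0.15, adjusted p = 8.88e-08 in the authors' deposited table). The heparan sulfate proteoglycan SDC4 (-0.49 ± 0.13, adjusted p = 0.0028) and the costimulatory receptor TNFRSF9 (-0.53 ± 0.16, adjusted p = 0.012) were the other fallers in the authors' deposited table. SOD2, a mitochondrial antioxidant enzyme strongly induced by NF-kB, was at 0.08 ± 0.16 with a mean level of 20406, and the complement gene C3 at -0.02 ± 0.15 with 30378, in the authors' deposited table. Any difference between these lists and the 39 genes was not tested.

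**Figure D4:**
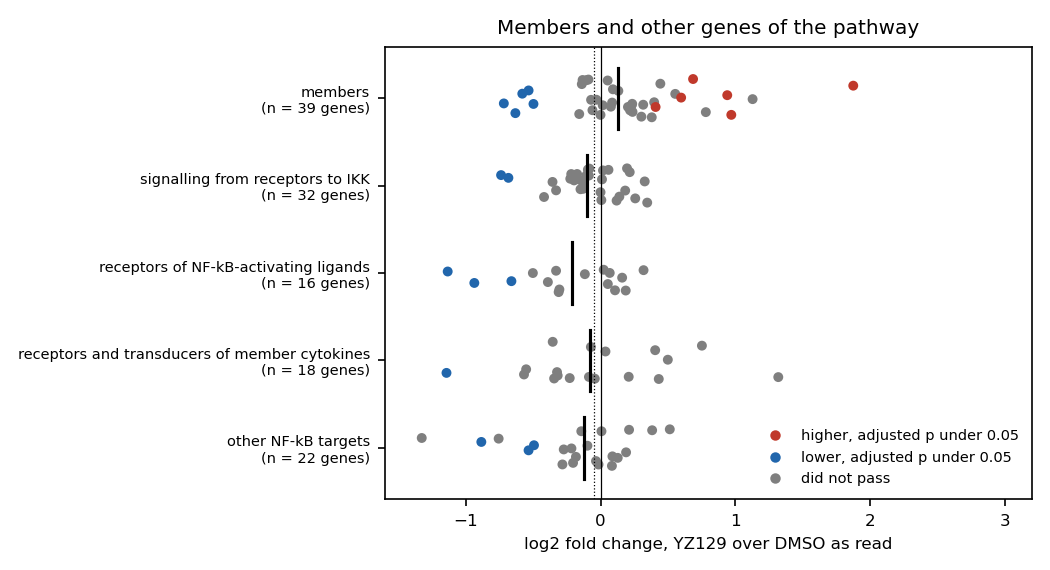
Log2 fold change (YZ129 over DMSO as read) of the 39 genes and of the tested genes of 4 further pathway lists, 1 point per gene; heavy bars are list medians and the dotted line is the median of all tested genes. Red points, the 6 rises, occur in the top row, whose median is 0.13; the 9 falls of the other lists are blue.

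Neighbouring genes were examined for the 11 called members. Of 22 nearest protein-coding neighbours 14 were tested and not members themselves. Of these, 1 rose, IL1F10 beside IL1RN, and 1 fell, the proteasome subunit PSMA6 beside NFKBIA (-0.53 ± 0.15, adjusted p = 0.0050 in the authors' deposited table). Over all tested genes 5.24% rose and 7.64% fell, so 1 call each way among 14 is near the common share. In the GENCODE annotation 10 of the 39 genes overlap a gene on the opposite strand, 3 of the called ones among them: IL6, TNFAIP3 and IL6R. STEAP1B, which overlaps IL6, was at 0.03 ± 0.16 in the authors' deposited table. The sources used here do not say whether the authors counted by strand, so reads of such partners cannot be told apart.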

How the data were processed

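RNA of 4 U87 libraries, 2 per group by their titles, was sequenced by the authors. Tools named in the submitters' processing notes are Cuffdiff, Cufflinks 2.2.1 and TopHat2 2.0.12, and the build is hg19. Per the file headers the deposited table holds the columns of a DESeq2 result; the sources used here give neither read counter nor annotation. The deposited mean level is a normalized signal averaged by the authors over 8 libraries: 1372 of 1372 genes with the lowest levels were sums of 8 fixed steps (tolerance 1e-07), and 4 of these libraries moved the fold. For genes with 2 reads, both in 1 library, the median log2 change per library was at most 0.55 in size, which shows moderation before deposit. Depth in reads is unknown. The authors' log2 fold change divided by their log2 standard error gave the deposited score, whose two-sided normal p-value and Benjamini-Hochberg adjustment over 14812 genes gave the deposited p-values. No adjusted p was given for 4937 genes (25.0%), with levels up to 9.43.

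The authors' adjusted p under 0.05 was the call. Intervals of 95%, folds, levels per kilobase (GENCODE 29) and motif searches (RefSeq promoters, GRCh38.p14) were computed with Python 3.11.15, pandas 2.3.3, scipy 1.17.1 and Biopython 1.88. On simulated data only the p-value and adjustment routine and the reading of the steps per library were tested. Alternatives were other thresholds, filters and centrings. All members were named; of other lists, at most the 10 called genes with the smallest adjusted p, and others named for their role. Members and lists were chosen with earlier results of these data known.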

Additional observations from a re-analysis of the deposited data

How the results depend on the processing

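Under 7 alternatives IL24 kept its call in each, and IL1A, TRAF1, IL6R, TNFAIP3, IL6, CCL2, TNIP1 and NFKBIA in 6, losing it only when a log2 change of at least 1 was also required. With that requirement 1 member was higher and 0 were lower, all genes gave 239 higher and 174 lower, and the other pathway genes 2 lower. IL1RN lost its call also at an adjusted p under 0.01 and with no filter on low values (adjusted p = 0.064), and PTGES with centring within deciles of level (adjusted p = 0.12); the cause was not tested. At an adjusted p under 0.01 all genes gave 446 higher and 698 lower. IL8 and CXCL2 gained a call at an adjusted p under 0.10 and under both centrings, LIF under centring within deciles. There the other pathway genes gave 1 higher, CYLD (0.48, adjusted p = 0.026). Among all genes the higher share of calls was 40.7%, 51.9% centred on the overall median (954 higher, 884 lower) and 53.4% within deciles; among members it was 54.5%, 61.5% and 69.2%. Signs turned for uncalled members near 0: IL33 (0.0195) and IL11 (0.0495) with centring on all genes, and IL33 (0.0442), IL11 (0.0922), CSF3 (0.0958), ICAM1 (0.0347) and IL6ST (0.0226) within deciles. No paired analysis was possible because the table holds no values per library; for the same reason leaving out a replicate and another tool were not run. Without depth in reads, the SE alone limits what can be seen.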
